A study of Mus musculus with 30 samples.

Results

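Macrophages are found in most solid tumors, and 10 genes that are widely used to recognise them or to describe their activation state were followed through 2 mouse colon carcinoma models, CT-26 and Colon 26. The genes were chosen by name and are Adgre1, Cd68, Mrc1, Cd163, Arg1, Nos2, Apoe, C1qa, Trem2 and Spp1, 10 of the 53431 gene identifiers that were quantified by RNA-seq. All 10 were present in the count table, and each passed the filter on low counts in every comparison between tumors. RNA came from 30 libraries in 8 groups. There were 3 cultures of the CT-26 line, 3 cultures of the Colon 26 line, and 4 tumors of each model at each of 3 nominal sizes, 100, 400 and 800 mm3. The tumors grew under the skin of the flank of female BALB/c mice, and the age of the mice was not given in the sources used here. No label assigns an antibody to any sample, although the protocol text of the series mentions antibody dosing, so the tumors were taken as untreated. Every tumor carries its own measured volume, whereas nothing states that the 3 cultures of a line were grown separately, so p-values that involve cultures may measure technical spread alone.

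Macrophages arise from circulating monocytes and from precursors that settle in tissues before birth, and they depend on signals through the receptor Csf1r. Activation is often described along an axis. At one end, interferon and bacterial products induce Nos2, which makes nitric oxide from arginine. At the other end, interleukin 4 and related signals induce Arg1, which breaks arginine down to ornithine, together with the mannose receptor Mrc1. Macrophages in tumors rarely sit at either end, and a state marked by Trem2, Apoe and Spp1 is commonly described in lipid-rich and tumor tissue. Several of these genes are not exclusive to macrophages. Spp1 (osteopontin) in particular is also made by many carcinoma cells. In bulk tissue, fewer macrophages and less RNA per macrophage cannot be told apart.

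The libraries held 21384697 to 39722554 counts on genes, with 22923571 to 35681885 in tumors. The Colon 26 cultures were deeper (36042918 to 39722554) than the CT-26 cultures (21384697 to 27856353). Library identifiers in the labels form separate series for the cultures of the 2 lines. Line and library series therefore cannot be told apart in culture. The tumor libraries carry identifiers apart from both, so library series also cannot be told apart from the difference between culture and tumor. One tumor library, Colon 26 at 400 mm3, tumor 1, had the lowest mean correlation with its group (0.948, where the other tumor libraries had 0.962 to 0.990). Numbers of tumors and cultures are names only. Levels are given as FPKM, in which fragment counts are divided by transcript length and by library depth, so that genes can be compared with each other. Fold changes come from counts and are on the log2 scale, Colon 26 over CT-26 unless stated otherwise, with their standard error (SE). A gene was called when the adjusted p was at most 0.1 and the log2 fold change was at least 1 in size, the thresholds of the study.

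In tumors, the 10 genes covered a wide range of levels, with Spp1 highest and Cd163 and Nos2 lowest. Group means of Spp1 lay between 2954 and 6308 FPKM, which placed it among the 18 most abundant genes in every tumor library. Apoe, a lipid carrier, had group means of 248 to 521 FPKM, and C1qa, a chain of the first complement component, 184 to 373 FPKM. Cd68, a lysosomal glycoprotein, followed with 56.5 to 91.3 FPKM. Arg1 had group means of 44.3 to 134 FPKM, Mrc1 15.3 to 48.3 FPKM, Trem2, a lipid-sensing receptor, 20.4 to 50.5 FPKM, and Adgre1, which encodes the F4/80 antigen, 15.3 to 28.4 FPKM. Nos2 had means of 2.54 to 7.59 FPKM, and Cd163, the haemoglobin scavenger receptor, 1.08 to 3.67 FPKM. Arg1 was thus above Nos2 in each of the 6 tumor groups when their levels are set per length. When the 6 tumor groups were ordered by their mean for each gene, 50 pairs of neighbours resulted. The libraries of 1 of these pairs did not overlap (Spp1, Colon 26 at 100 mm3 above CT-26 at 400 mm3). Neighbours in this order have the closest means by construction, so the count does not show whether the groups differ. The same share over all genes was not computed.

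**Figure D1:**
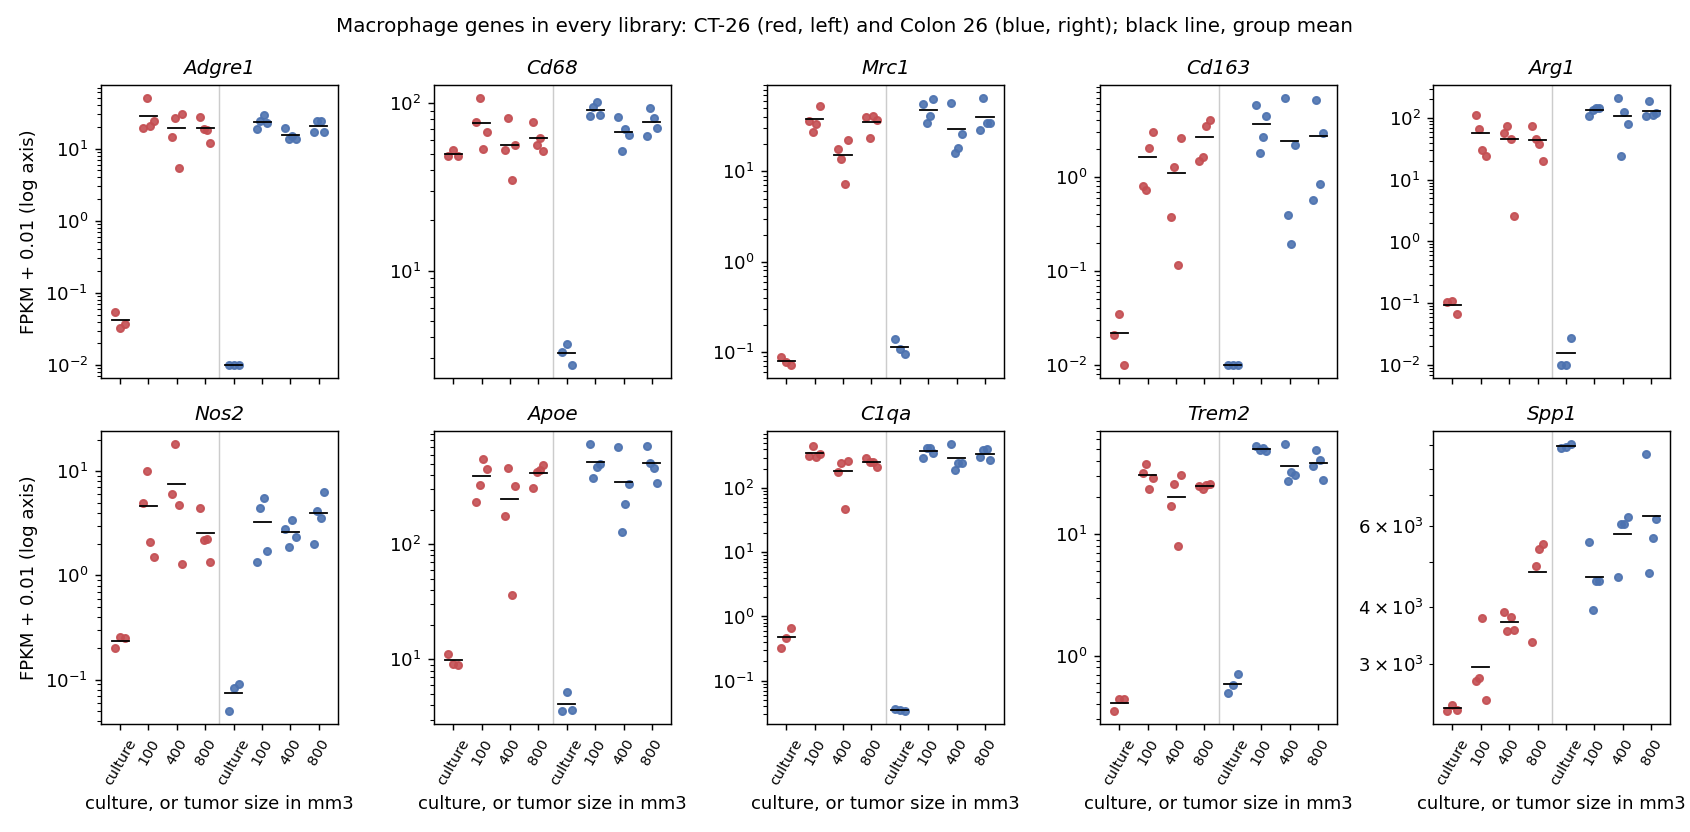
Level of each of the 10 genes in every library. The vertical axis is FPKM + 0.01 on a log axis, the horizontal axis gives culture and tumor size in mm3 for CT-26 (red, left) and Colon 26 (blue, right), points are libraries (3 cultures or 4 tumors) and black lines are group means. Most genes are near 0 in culture, whereas Spp1 is abundant in both lines and Cd68 in the CT-26 cultures.

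The first question was which of these transcripts the carcinoma cells make without any host cells. Spp1 and, in CT-26, Cd68 were well expressed in culture, and the other genes were low. Spp1 measured 2371, 2442 and 2380 FPKM in the CT-26 cultures and 8902, 8921 and 9071 FPKM in the Colon 26 cultures. It ranked as the most abundant gene (rank 1) in each Colon 26 culture and at ranks 18 to 19 in the CT-26 cultures. The groups did not overlap, and Spp1 was higher in Colon 26 (log2 fold change 1.89, SE 0.02, adjusted p = 1e-18). Cd68 showed the opposite order. It measured 48.4, 52.2 and 48.3 FPKM in the CT-26 cultures and 3.27, 3.62 and 2.73 FPKM in the Colon 26 cultures, again without overlap (log2 fold change -3.98, SE 0.07, adjusted p = 7.7e-17).

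The promoters of these 2 genes are shown because they are the members with a high RNA level in culture, Spp1 in both lines and Cd68 in CT-26 only. Each line holds the 250 bases upstream of a RefSeq transcription start (assembly GRCm38.p6, strand of the gene, 5′ to 3′), with matches to 3 motifs in capitals. The motifs searched on both strands were GAGGAAGT (PU.1, a factor of myeloid cells; ACTTCCTC on the other strand), TGACTCA (AP-1; TGAGTCA on the other strand) and AACCACA (Runx; TGTGGTT on the other strand). None of these motifs contains another.
Spp1, chr5:104434861-104435110, plus strand: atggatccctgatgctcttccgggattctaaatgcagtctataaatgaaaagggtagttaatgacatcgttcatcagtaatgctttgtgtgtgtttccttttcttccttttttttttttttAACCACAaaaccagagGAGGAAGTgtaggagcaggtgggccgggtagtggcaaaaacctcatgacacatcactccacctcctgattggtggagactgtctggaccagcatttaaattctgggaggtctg
Cd68, chr11:69666171-69666420, minus strand: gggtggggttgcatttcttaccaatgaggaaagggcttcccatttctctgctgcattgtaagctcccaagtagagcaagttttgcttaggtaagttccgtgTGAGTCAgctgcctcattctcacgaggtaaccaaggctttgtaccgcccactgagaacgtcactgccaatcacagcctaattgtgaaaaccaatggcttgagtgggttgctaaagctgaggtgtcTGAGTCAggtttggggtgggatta

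The Spp1 window holds 1 PU.1 match and 1 Runx match, and the Cd68 window holds 2 AP-1 matches. Windows were found for 6 of the 10 genes (9 windows in all), and those of Mrc1, Cd163, Apoe and Trem2 hold none of the 3 motifs, nor does the other Spp1 window. Of 32851 upstream windows of the same length, 2.44% hold the PU.1 motif, 4.46% the AP-1 motif and 4.40% the Runx motif. A match describes letters and is not evidence of binding. By the GRCm38 annotation, the Spp1 gene spans chr5:104435118-104441050 on the plus strand and its exons overlap those of Gm42793 on the same strand, so reads there cannot be assigned to 1 gene with certainty. The Cd68 gene spans chr11:69664213-69666153 on the minus strand and overlaps no other gene's exons, nor do the other 8 members.

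The remaining members were low in culture and differed between the lines in the direction of more transcript in CT-26 for 3 of them. Apoe measured 11.2, 9.15 and 8.99 FPKM in the CT-26 cultures against 3.58, 5.18 and 3.61 FPKM in the Colon 26 cultures (log2 fold change -1.23, SE 0.13, adjusted p = 1.8e-07). Nos2 measured 0.191, 0.248 and 0.243 FPKM against 0.0405, 0.0726 and 0.0808 FPKM (log2 fold change -1.86, SE 0.35, adjusted p = 0.00013), from 14 to 29 and 5 to 12 counts per library. The groups were apart for both genes. C1qa had 7, 13 and 16 counts in the CT-26 cultures and 1 count in each Colon 26 culture. With a floor of 3 counts per library, C1qa was at least 6.14-fold higher in the CT-26 cultures, and the fitted value (adjusted p = 6.5e-06) depends on the prior count.

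Mrc1 (8 to 10 counts in CT-26, 18 to 25 in Colon 26) and Trem2 (8 to 13 and 19 to 30 counts) were slightly higher in the deeper Colon 26 libraries and were not called, with log2 fold changes of 0.57 (SE 0.33, adjusted p = 0.12) and 0.52 (SE 0.31, adjusted p = 0.13). Adgre1, Cd163 and Arg1 did not pass the filter, with at most 4 counts in any culture. Adgre1 and Cd163 had 0 counts in all 3 Colon 26 cultures, where the floor of 3 counts corresponds to 0.0791 CPM (counts scaled to library size). Of the 7 genes tested in culture, 5 were called, 1 higher and 4 lower in Colon 26, beside 22.9% of all genes tested. Macrophage receptors and complement chains were detected at similarly low counts in the CT-26 cultures (examples chosen after their values were seen, Csf1r 7 to 15, C1qb 11 to 17, Mpeg1 9 to 13) and at fewer in the Colon 26 cultures (Csf1r 0 to 3, C1qb 1 to 2, Mpeg1 2 to 3). Their part in the C1qa result was not tested.

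Set against tumors of the same model, culture levels separated the 10 genes. Mean CPM of Cd68 in the CT-26 cultures was 75.1% of its mean over the 12 CT-26 tumors, and in Colon 26 it was 4.18%. Mean CPM of Spp1 was 61.4% of the tumor mean in CT-26 and 165% in Colon 26, the only case in which culture exceeded tumor. For Nos2, Apoe and Trem2 the cultures reached 4.39%, 2.84% and 1.56% of the tumor mean in CT-26 and 1.94%, 0.977% and 1.44% in Colon 26. For Adgre1, Mrc1, Cd163, Arg1 and C1qa the share lay between 0.135% and 0.656% in CT-26 and between 0 and 0.276% in Colon 26. Among 15 other core macrophage genes, picked out after their values were seen, Mertk and Cd14 also had sizable culture shares (Mertk 39.6% and 41.9%, Cd14 20.5% and 21.2% in CT-26 and Colon 26), and the other 13 were at 0.485% or less.

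**Figure D2:**
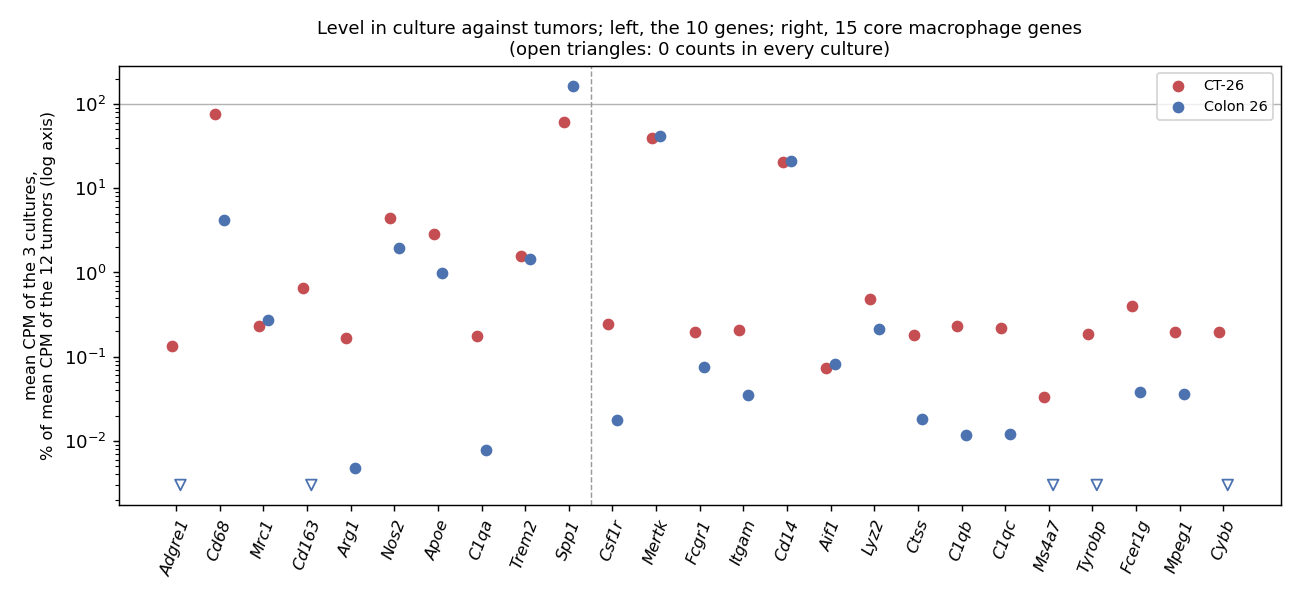
Mean CPM of the 3 cultures as a percentage of the mean CPM of the 12 tumors of the same model (log axis), for the 10 genes (left of the dashed line) and 15 core macrophage genes (right). Open triangles mark genes with 0 counts in every culture. Spp1 lies at 61.4% (CT-26) and 165% (Colon 26) and Cd68 at 75.1% and 4.18%.

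The next question was which transcripts appear when the lines grow in a host. At 100 mm3, 8 of the 10 genes were called higher in CT-26 tumors than in CT-26 cultures, and the 2 exceptions were Cd68 and Spp1. Of all 15370 genes tested, 32.2% were called in either direction, with 3406 higher and 1546 lower. In Colon 26, 9 of the 10 genes were called higher. There 26.9% of all 15946 genes tested were called in either direction, with 3321 higher and 975 lower. Adgre1, Cd163 and Arg1, which did not pass the filter between the cultures, were tested here because of their counts in tumors. The median log2 fold change of the 10 genes was 6.58 in CT-26 and 7.91 in Colon 26, against 0.06 and 0.05 over all genes tested. Adgre1 went from 2 or 3 counts per CT-26 culture to 1529, 4927, 1684 and 2246 counts in the tumors, at least 746-fold higher on CPM, and from 0 counts to 1813, 2767, 2488 and 1724 in Colon 26, at least 936-fold higher. Cd163 was at least 58.3-fold higher in CT-26 tumors and at least 199-fold higher in Colon 26 tumors. In Colon 26, Arg1 was at least 2422-fold and C1qa at least 4763-fold higher in tumors. Among the called genes that were above the floor in both lines, the fitted log2 fold changes were 9.08 (SE 0.34) for Mrc1, 6.24 (SE 0.25) for Trem2, 5.26 (SE 0.32) for Apoe and 4.39 (SE 0.81) for Nos2 in CT-26. In Colon 26 they were 8.88 (SE 0.33), 6.45 (SE 0.10), 6.93 (SE 0.30) and 5.71 (SE 0.69). In CT-26, Arg1 (2 to 4 counts in culture) and C1qa were fitted at 9.40 (SE 0.98) and 9.54 (SE 0.28).

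Cd68 and Spp1 departed from this pattern. In CT-26, Cd68 was 77.0, 107, 53.2 and 67.6 FPKM in tumors of 100 mm3, only slightly above the cultures (log2 fold change 0.63, SE 0.22, adjusted p = 0.032), whereas in Colon 26 it reached 83.7, 94.8, 102 and 85.04 FPKM (log2 fold change 4.87, SE 0.12, adjusted p = 3.4e-09). The ranges of the 2 models overlapped in tumors, whereas the cultures were far apart. Spp1 was 2749, 2799, 3769 and 2500 FPKM in CT-26 tumors of 100 mm3 and differed little from culture (log2 fold change 0.30, SE 0.13, adjusted p = 0.065). In Colon 26 tumors of that size it was 5527, 3926, 4553 and 4553 FPKM, below each of the 3 cultures (log2 fold change -0.92, SE 0.10, adjusted p = 3.2e-05, short of the minimum fold).

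The change from culture to tumor was itself compared between the models with an interaction term. It differed for 4 of the 10 genes, beside 17.6% of all genes tested. The rise was larger in Colon 26 for Cd68 (difference of log2 fold changes 4.19, SE 0.28, adjusted p = 8.4e-08), C1qa (4.08, SE 0.85, adjusted p = 0.0014) and Apoe (1.62, SE 0.41, adjusted p = 0.005). For Spp1 the difference was in the other direction (-1.27, SE 0.18, adjusted p = 5e-05). Since the C1qa difference rests on 1 count in each Colon 26 culture, its size depends on the prior count. Mrc1 and Trem2 differed by -0.25 (SE 0.70) and 0.16 (SE 0.34), with adjusted p of 0.82 and 0.75. Cd68, C1qa and Apoe started lower in the Colon 26 cultures (fitted log2 fold changes -3.98, -4.06 and -1.23). In tumors of 100 mm3 they were not called between the models (0.21, 0.03 and 0.38). A larger rise here therefore does not mean a higher level in Colon 26 tumors.

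Between the tumors of the 2 models, most of the 10 genes were at similar levels, and Arg1 was the member that was called higher in Colon 26 most often. At 100 mm3, 1 of the 10 genes was called (Arg1, higher in Colon 26), beside 13.2% of all genes tested. At 400 mm3, 1 was called (Nos2, lower in Colon 26), beside 14.3%, and at 800 mm3, 1 was called (Arg1, higher), beside 14.1%. With all 24 tumors in one fit and size as a covariate, Arg1 alone was called, beside 14.6%. These shares, 1 gene in 10, are near the background in each comparison. The median log2 fold change of the 10 genes was 0.34, 0.60 and 0.30 at the 3 sizes and 0.42 over all tumors, against 0.00, 0.03, -0.01 and 0.04 over all genes tested.

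**Figure D3:**
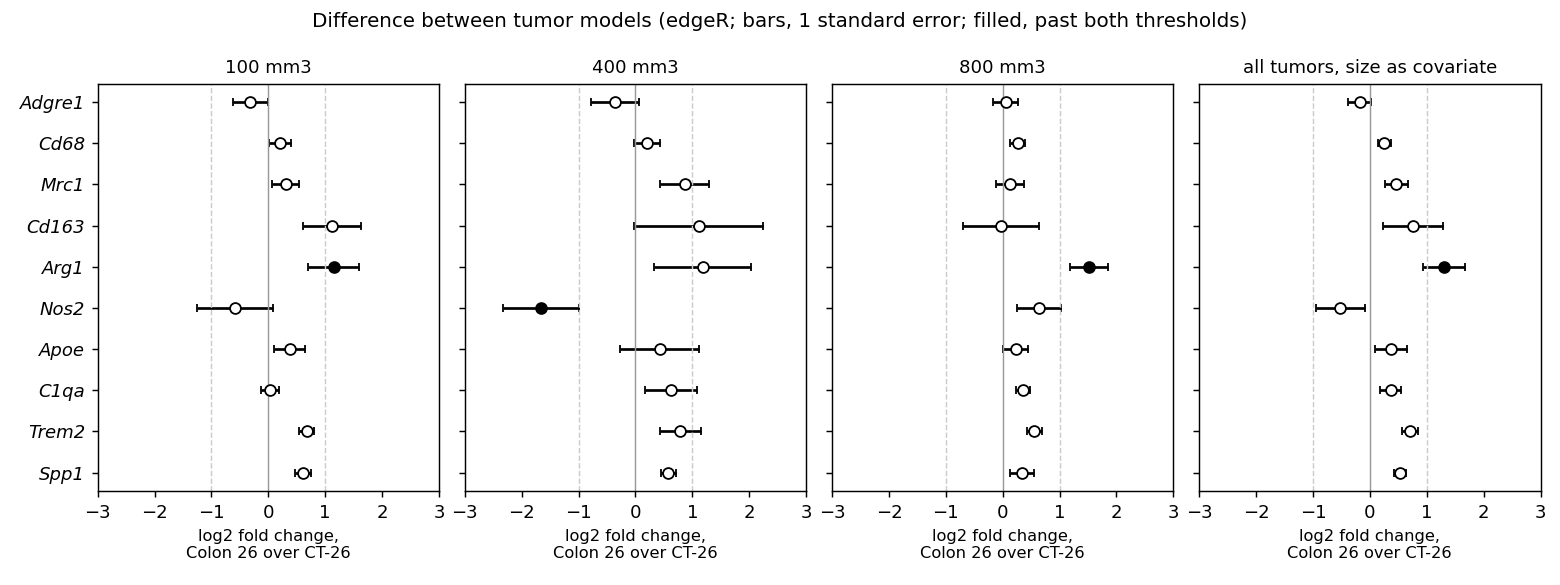
Log2 fold change of each of the 10 genes between the tumor models (Colon 26 over CT-26) at each size and over all 24 tumors. Points are edgeR estimates, bars are 1 standard error, filled points passed both thresholds and dashed lines mark a log2 fold change of 1. Arg1 lies above 1 in all 4 panels, and Nos2 changes side between sizes.

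Among the identity markers, Adgre1 and Cd68 did not separate the models at any size. Adgre1 ranged from 5.33 to 49.9 FPKM in CT-26 tumors and from 13.5 to 29.1 FPKM in Colon 26 tumors, and its log2 fold changes were -0.31, -0.36 and 0.05 at the 3 sizes (SE 0.30, 0.42 and 0.21), with adjusted p of 0.42, 0.51 and 0.86. Cd68 ranged from 34.7 to 107 FPKM and from 51.9 to 102 FPKM, with log2 fold changes of 0.20 to 0.26 and adjusted p of 0.11 to 0.51. C1qa was 297, 256, 259 and 215 FPKM in CT-26 tumors of 800 mm3 and 308, 396, 400.1 and 275 FPKM in Colon 26. These ranges overlap, and the difference had a log2 fold change of 0.36 (SE 0.12, adjusted p = 0.033), short of the minimum fold. At 100 mm3 the C1qa difference was 0.03 (SE 0.16, adjusted p = 0.91). Over all tumors, Cd68 (0.25, SE 0.12, adjusted p = 0.058) and C1qa (0.36, SE 0.18, adjusted p = 0.085) passed the threshold on p and not the minimum fold. Adgre1 had -0.18 (SE 0.20, adjusted p = 0.45) in that fit.

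The scavenger receptors varied widely between tumors of a group. Cd163 in Colon 26 was 6.87, 0.387, 0.183 and 2.16 FPKM at 400 mm3 and 0.564, 6.56, 0.830 and 2.96 FPKM at 800 mm3. In CT-26 it ranged from 0.105 to 4.01 FPKM over the 12 tumors. At 100 mm3, Cd163 was 0.792, 0.718, 2.02 and 3.04 FPKM in CT-26 and 5.80, 1.79, 2.67 and 4.43 FPKM in Colon 26. These groups overlap, and the log2 fold change of 1.12 (SE 0.51) just missed the threshold, with an adjusted p that rounds to 0.1. Mrc1 ranged from 7.26 to 53.6 FPKM in CT-26 tumors and from 15.8 to 64.5 FPKM in Colon 26 tumors. Its difference was 0.31, 0.87 and 0.13 at the 3 sizes (SE 0.24, 0.43 and 0.25), and over all tumors it was 0.46 (SE 0.21, adjusted p = 0.05).

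Arg1 and Nos2 use the same substrate. Arg1 measured 111, 65.7, 29.9 and 24.2 FPKM in CT-26 tumors of 100 mm3 and 109, 133, 144 and 148 FPKM in Colon 26. CT-26 tumor 1 lies within the Colon 26 range and the other 3 below it (log2 fold change 1.15, SE 0.44, adjusted p = 0.059). At 400 mm3 Arg1 was 57.6, 75.1, 45.0 and 2.60 FPKM in CT-26 and 209, 24.4, 124 and 81.2 FPKM in Colon 26, with overlap and with a log2 fold change of 1.18 (SE 0.85, adjusted p = 0.29). At 800 mm3 it was 75.0, 45.0, 37.3 and 20.02 FPKM in CT-26 and 109, 188, 111 and 121 FPKM in Colon 26. There the groups did not overlap (log2 fold change 1.52, SE 0.33, adjusted p = 0.0032). Over all tumors, Arg1 was higher in Colon 26 by a log2 fold change of 1.31 (SE 0.37, adjusted p = 0.0031).

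The call of Arg1 at 100 mm3 rested on single libraries. It was lost when CT-26 tumor 3 or 4, or Colon 26 tumor 3 or 4, was left out, with log2 fold changes of 0.89 to 1.72 over the 8 fits.

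Nos2 did not keep one direction. It measured 4.92, 10.0, 2.06 and 1.51 FPKM in CT-26 and 1.33, 4.43, 5.50 and 1.72 FPKM in Colon 26 at 100 mm3 (log2 fold change -0.58, SE 0.67, adjusted p = 0.5). At 400 mm3 it measured 6.09, 18.3, 4.69 and 1.28 FPKM in CT-26 and 2.75, 1.88, 3.39 and 2.34 FPKM in Colon 26. These groups overlap, since CT-26 tumor 4 lies below all Colon 26 tumors, and the log2 fold change was -1.67 (SE 0.67, adjusted p = 0.071). At 800 mm3 it measured 4.43, 2.17, 2.24 and 1.33 FPKM in CT-26 and 1.99, 4.11, 3.54 and 6.29 FPKM in Colon 26 (log2 fold change 0.64, SE 0.39, adjusted p = 0.19). The call at 400 mm3 was lost without any 1 of CT-26 tumors 1 and 2 and Colon 26 tumors 1, 2 and 4, with log2 fold changes of -2.02 to -0.76 over the 8 fits, and with limma on FPKM.

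Among the genes of the lipid-associated state, Trem2 was apart between the models at 100 and 800 mm3. It was 32.0, 37.7, 23.6 and 28.9 FPKM in CT-26 tumors of 100 mm3 and 53.0, 49.6, 50.9 and 48.5 FPKM in Colon 26, and at 800 mm3 it was 24.7, 23.7, 25.6 and 25.6 FPKM against 36.3, 48.8, 40.3 and 27.9 FPKM. All Colon 26 tumors lay above all CT-26 tumors at these 2 sizes. The log2 fold changes were 0.67 (SE 0.13, adjusted p = 0.0025) and 0.56 (SE 0.14, adjusted p = 0.0065), which passed the threshold on p and not the minimum fold. At 400 mm3 the values were 16.9, 26.0, 7.93 and 30.6 FPKM in CT-26 and 55.2, 27.2, 32.6 and 30.6 FPKM in Colon 26 (0.79, SE 0.36, adjusted p = 0.11). Over all tumors the log2 fold change of Trem2 was 0.70 (SE 0.14, adjusted p = 0.00016). Apoe showed no such separation, with 36.4 to 551 FPKM in CT-26 tumors, 129 to 745 FPKM in Colon 26 tumors and log2 fold changes of 0.38, 0.42 and 0.23 (adjusted p of 0.28, 0.65 and 0.41).

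Spp1 was also higher in Colon 26 tumors by less than the minimum fold. At 400 mm3 it was 3898, 3545, 3799 and 3559 FPKM in CT-26 and 4646, 6071, 6062 and 6281 FPKM in Colon 26, without overlap (log2 fold change 0.58, SE 0.13, adjusted p = 0.0062). At 100 mm3 the groups were also apart (0.60, SE 0.14, adjusted p = 0.0068), and at 800 mm3 they overlapped, with 3349, 4904, 5352 and 5478 FPKM in CT-26 and 8604, 4742, 5664 and 6222 FPKM in Colon 26 (0.34, SE 0.21, adjusted p = 0.21). Beside these values stands the difference of the cultures of the lines (1.89), and the part of the carcinoma cells' own transcript in the tumor difference was not tested.

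Tumor growth from 100 to 400 or 800 mm3 left the 10 genes without a called change. None of the 10 was called by edgeR in CT-26 at 400 mm3 (0.00% of all genes tested called) or at 800 mm3 (0.00%), or in Colon 26 at 400 mm3 (0.0131%, 2 genes) or at 800 mm3 (1.33%, 205 genes). At an unadjusted p under 0.05 there were 3356, 1610, 1929 and 3187 genes in these comparisons, and DESeq2 called 146, 39, 30 and 209 genes. Mrc1 in CT-26 came nearest. It measured 36.3, 27.4, 33.4 and 53.6 FPKM at 100 mm3 and 17.9, 13.7, 7.26 and 22.5 FPKM at 400 mm3, groups that do not overlap, and 39.9, 23.4, 40.6 and 37.3 FPKM at 800 mm3. The log2 fold change at 400 mm3 was -1.28 (SE 0.31, adjusted p = 0.11), and DESeq2 called it (adjusted p = 0.0016).

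In Colon 26, 1 library decided whether members changed at 400 mm3. Without tumor 1 of that group, Mrc1, Cd163 and Apoe were called lower than at 100 mm3, with log2 fold changes of -1.26, -2.03 and -1.18 in place of -0.74, -0.64 and -0.60. That tumor had the highest Mrc1 (56.5 FPKM), Cd163 (6.87 FPKM), Apoe (703 FPKM), C1qa (489 FPKM) and Arg1 (209 FPKM) of its group and the lowest Spp1, and it is also the library with the lowest likeness to its group. Its skeletal muscle markers summed to 2267 CPM, where the group median was 3.43 CPM. Muscle transcript was not limited to this tumor. The same sum was 103 to 1182 CPM in the Colon 26 tumors of 100 mm3, the baseline of this comparison, and 0.293 to 1.03 CPM at 800 mm3. In CT-26 tumors it ranged from 0.747 to 451 CPM at 100 mm3, 0.552 to 202 CPM at 400 mm3 and 8.08 to 182 CPM at 800 mm3. The part of muscle tissue in these values was not tested.

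The difference between models did not change detectably with size for any of the 10 genes. The interaction of model and size called 0 of the 10 at 400 mm3 (0.00% of all genes tested) and 0 at 800 mm3 (0.0485%, 8 genes). At an unadjusted p under 0.05 there were 1381 and 1792 genes, and DESeq2 called 25 and 55 genes, none of them a member. The change of direction of Nos2 between sizes is therefore not shown to be a difference between sizes.

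To describe the members relative to core macrophage genes, each log2 CPM was set against the mean log2 CPM of 15 such genes (Csf1r, Mertk, Fcgr1, Itgam, Cd14, Aif1, Lyz2, Ctss, C1qb, C1qc, Ms4a7, Tyrobp, Fcer1g, Mpeg1 and Cybb). These differences are given without a test. Of the core genes, Mertk (39.6% and 41.9% of the tumor mean in CT-26 and Colon 26 cultures) and Cd14 (20.5% and 21.2%) were also expressed by the lines. The reference is therefore not macrophage transcript alone. Adgre1 relative to the core genes had group means of -0.51, -0.55 and -0.70 in CT-26 and of -0.94, -1.12 and -0.996 in Colon 26, so that it was lower per core transcript in Colon 26 at each size. The 4 libraries of each model were apart at 100 mm3 (CT-26 -0.69 to -0.21, Colon 26 -1.11 to -0.85) and at 400 mm3 (-0.81 to -0.23 and -1.26 to -0.91). Trem2 had means of -1.88, -1.92 and -1.83 in CT-26 and of -1.39, -1.48 and -1.68 in Colon 26, and Arg1 had -0.76, -0.91 and -0.70 in CT-26 and 0.45, 0.24 and 0.54 in Colon 26. The group means of C1qa lay between 1.10 and 1.60 in all 6 groups. The core genes include C1qb and C1qc, whose r with C1qa across the tumors was 0.99 and 0.996, so a steady value is largely built in. The core genes themselves averaged 6.92, 6.27 and 6.61 log2 CPM in CT-26 and 7.13, 6.71 and 7.00 in Colon 26, with the lowest single value in CT-26 tumor 3 of 400 mm3 (5.04).

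**Figure D4:**
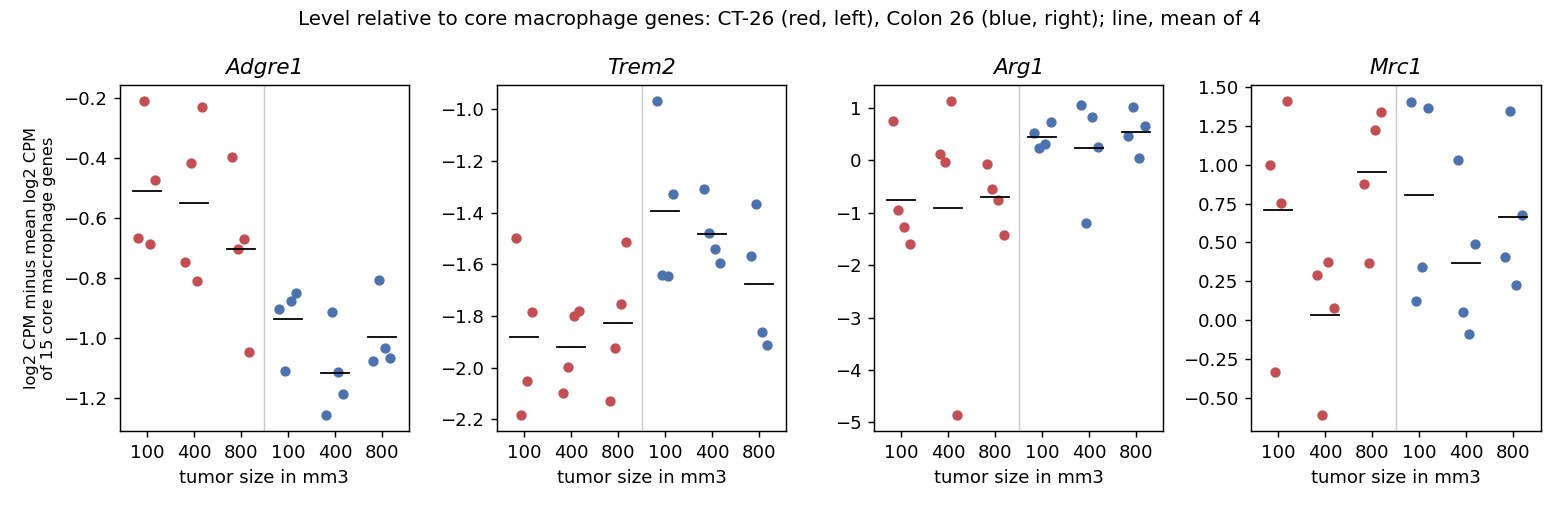
Log2 CPM of Adgre1, Trem2, Arg1 and Mrc1 minus the mean log2 CPM of 15 core macrophage genes in each tumor. Red points on the left are CT-26, blue points on the right are Colon 26, 4 tumors per size, and black lines are group means. Adgre1 lies lower in Colon 26 and Trem2 and Arg1 higher, with overlap in part of the sizes.

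By Pearson's r, most correlated pairs of members across tumors had a positive coefficient. Over the 12 tumors of each model, 45 pairs of members were correlated on log2 CPM, 90 relations in all, with two-sided permutation p-values adjusted over the 90. In CT-26, 10 pairs had an adjusted p of at most 0.05 for Pearson's r, all positive, and in Colon 26, 18 pairs did, of which 17 were positive. By Spearman's rho the counts were smaller, with 2 pairs in CT-26, 1 of them negative, and 7 in Colon 26, 2 of them negative. The negative pair in CT-26 was Cd163 and Nos2 (rho = -0.78, adjusted permutation p = 0.047, r = -0.59, adjusted permutation p = 0.09), with r of -0.49 within sizes and -0.77 without the 2 farthest tumors. C1qa and Trem2 were correlated in both models (CT-26 r = 0.95, adjusted permutation p = 0.006, rho = 0.62, adjusted permutation p = 0.09, Colon 26 r = 0.81 and 0.015, rho = 0.76 and 0.052). Within sizes r was 0.94 and 0.83, and without the 2 tumors farthest from the median of C1qa it was 0.67 and 0.72. In every pair, the 2 farthest tumors were chosen on 1 gene only, the one named first among the 10 genes at the opening. A tumor extreme in the other gene could therefore stay in.

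In CT-26, Arg1 was correlated with Nos2 (r = 0.70, adjusted permutation p = 0.031, rho = 0.90, adjusted permutation p = 0.0072, r within sizes 0.87, without the 2 farthest tumors 0.88). In Colon 26 the same pair had r = 0.35 (adjusted permutation p = 0.37) and rho = 0.41 (0.31), with 0.31 within sizes and 0.38 without the 2 farthest. Arg1 and Cd163 had r = -0.44 (adjusted permutation p = 0.23) and rho = -0.71 (0.066) in CT-26, with -0.68 within sizes and -0.60 without the 2 farthest, and r = 0.53 (0.13) and rho = 0.59 (0.1) in Colon 26, with 0.46 and 0.56. Neither passed 0.05, and the difference between the models was not tested.

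Spp1 was negatively correlated with Cd68 in Colon 26. With Cd68 it had r = -0.72 (adjusted permutation p = 0.032) and rho = -0.77 (0.047), with -0.70 within sizes and -0.82 without the 2 farthest tumors. With C1qa it had r = -0.64 (adjusted permutation p = 0.066) and rho = -0.82 (0.034), with -0.69 and -0.62. In CT-26 the relation of Spp1 and C1qa was r = -0.37 (adjusted permutation p = 0.36) and rho = -0.69 (0.072), with -0.32 and -0.61.

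**Figure D5:**
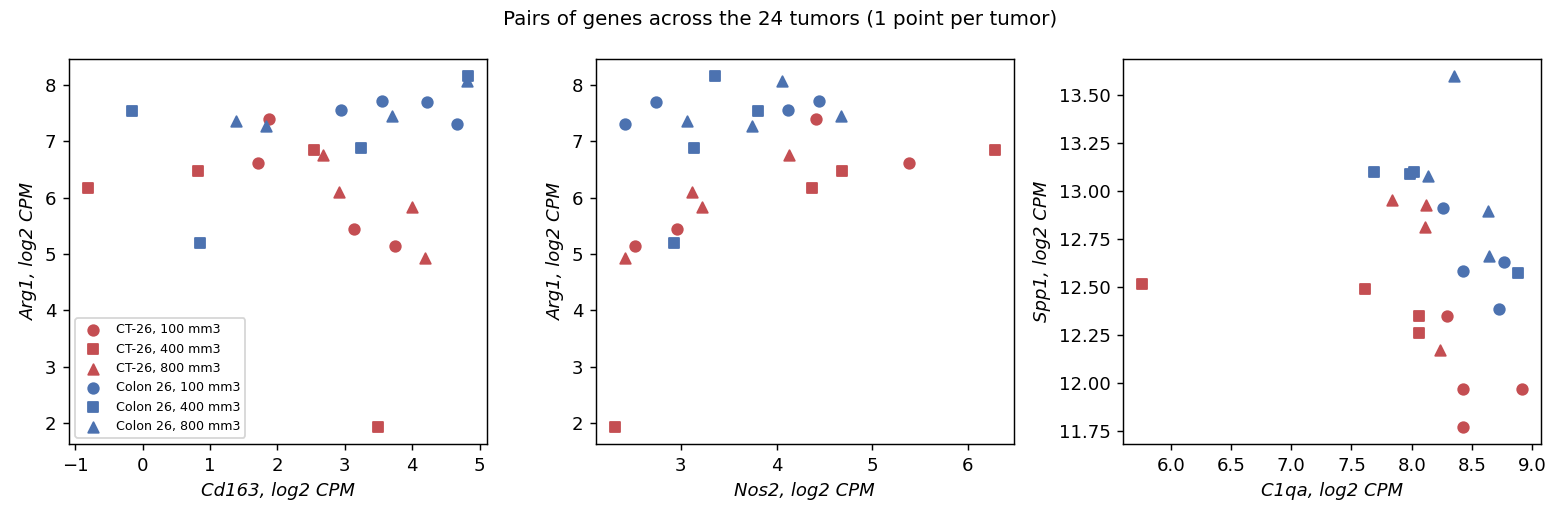
Pairs of genes across the 24 tumors on log2 CPM, 1 point per tumor, red for CT-26 and blue for Colon 26, with circles, squares and triangles for 100, 400 and 800 mm3. Arg1 against Cd163 has rho of -0.71 in CT-26 and 0.59 in Colon 26, Arg1 against Nos2 0.90 and 0.41, and Spp1 against C1qa -0.69 and -0.82.

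The genes most like each member across the 24 tumors were found among 13487 genes with a mean of at least 1 CPM, by Pearson's r of log2 CPM, as a description. For C1qa they were C1qc (0.996), C1qb (0.99) and Nrros (0.96), the first 2 being the other chains of the same complement protein. For Adgre1 they were Ms4a7 (0.95) and Lyn (0.94), for Cd68 Slc7a8 (0.96), Cd53 (0.94) and Efhd2 (0.93), and for Trem2 Ncf1 (0.94), Ucp2 (0.94) and Sirpa (0.94). Mrc1 and Cd163 shared Gas6 (0.93 and 0.92), beside Stab1 (0.95) and Maf (0.92) for Mrc1 and Npl (0.93) and Trpv4 (0.91) for Cd163. The nearest gene was Srgn for Arg1 (0.89), Nampt for Nos2 (0.88) and Rtl8b for Apoe (0.91). For Spp1 the nearest were Map1lc3b (0.90), Cox7a2l (0.90) and Tnfrsf22 (0.89). When deviations from group means were correlated instead, Adgre1, Nos2, Trem2 and Spp1 kept 0 of their 3 nearest genes.

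The wider pathway lists placed the members beside genes of the same roles, in the comparison of Colon 26 with CT-26 tumors. Some lists were also abundant in culture. Classical activation genes summed to mean CPM of 1246 (CT-26) and 1197 (Colon 26) in culture and 472 to 838 in tumor groups. For lipid-associated genes these values were 4775, 2953 and 3191 to 3715. Arginine and nitric oxide genes had 1783, 1246 and 601 to 784. Receptors of osteopontin and apolipoprotein E had 3074, 2999 and 3326 to 4189. Macrophage growth and polarizing factors had 586, 915 and 430 to 625. The core macrophage and alternative activation lists had means of at most 37.1 CPM in culture. The part of the carcinoma cells in the differences below was not tested. Over all genes tested, 13.2%, 14.3% and 14.1% were called at 100, 400 and 800 mm3. Small counts in the lists below do not set a list apart from these shares. Of 15 core macrophage genes, 0, 1 and 0 were called at 100, 400 and 800 mm3. The 1 gene was Csf1r, the receptor of macrophage growth factor, which was higher in Colon 26 (log2 fold change 1.01, SE 0.36, adjusted p = 0.05) and had log2 fold changes of 0.63 and 0.68 at the other sizes. The list median was 0.10, 0.29 and 0.33. Of the classical activation genes, 4 of 15, 3 of 14 and 1 of 15 tested were called, all lower in Colon 26. Ido1, which degrades tryptophan and is induced by interferon, was lower at each size (-4.04, -4.04 and -2.68), and Cxcl10 was lower at 100 mm3 (-1.92, SE 0.43, adjusted p = 0.0055). Il1b (-1.62) and Ptgs2 (-1.33) were lower at 400 mm3. The list medians were -0.67, -0.48 and 0.03. Nos2 was also lower at 400 mm3 (-1.67), a call that was lost when some single libraries were left out. At 100 and 800 mm3 Nos2 was not called (-0.58 and 0.64).

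Of the alternative activation genes, 0 of 14, 0 of 13 and 2 of 14 tested were called, Retnla (2.01, SE 0.92, adjusted p = 0.091) and F13a1 (1.20, SE 0.38, adjusted p = 0.021), both higher in Colon 26 at 800 mm3. Of the 15 lipid-associated macrophage genes, 0, 0 and 2 were called, the cholesterol regulators Nr1h3 (1.70, SE 0.25, adjusted p = 0.00031) and Abcg1 (1.02, SE 0.20, adjusted p = 0.0015). Both were also higher in the Colon 26 cultures (4.05 and 5.57). Among the 8 arginine and nitric oxide genes tested, Gch1, which makes the cofactor of nitric oxide synthases, was lower in Colon 26 at each size (-1.10, -1.41 and -1.30, with adjusted p of 1.2e-05, 1.5e-05 and 3.1e-05). At 800 mm3 Slc7a2, an arginine transporter, and Ass1, which regenerates arginine, were higher (1.04 and 1.08), as Arg1 was.

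Of the 12 receptors of osteopontin and apolipoprotein E, Vldlr was lower at each size (-1.21, -1.56 and -1.58) and Itgb5 was higher at 400 mm3 (1.25), and the other 10 were not called at any size. Among growth and polarizing factors, Ccl2, which attracts monocytes, was lower at 100 and 400 mm3 (-1.504 and -1.38), with Ccl7 at 100 mm3 (-1.15) and Ccl5 and Ifng at 400 mm3 (-1.68 and -1.61). Il33 was higher at 100 and 800 mm3 (1.497 and 1.70). In total, 3 of 7, 3 of 8 and 1 of 8 tested factors were called, beside 13.2%, 14.3% and 14.1% of all genes tested.

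Some markers of other cell types differed between the models beside the members. The shares called over all genes tested were 13.2%, 14.3% and 14.1% at 100, 400 and 800 mm3. Among the monocyte markers, Plac8 and Ly6c2 were lower in Colon 26 at each size, and the summed level of the list ranged from 156 to 440 CPM in CT-26 tumors and from 78.5 to 209 CPM in Colon 26 tumors. Plac8 was also lower in the Colon 26 cultures (-6.53). Of 7 T and NK cell markers, 2, 6 and 2 were lower, with summed levels of 11.5 to 58.3 CPM in CT-26 and 3.83 to 22.2 CPM in Colon 26. Of 5 neutrophil markers tested, 4 were lower at 400 mm3, S100a8 and S100a9 among them (-3.30 and -4.00), and at 800 mm3, 3 were lower and 1 higher. The summed level of the 7 listed neutrophil markers had means of 26.5, 55.5 and 47.5 CPM in CT-26. In Colon 26 these means were 29.6, 32.9 and 68.4 CPM, lower than in CT-26 at 400 mm3 only. The ranges of the models overlapped at each size. Ly6g, the defining neutrophil marker, had 0 counts in all tumors of 3 of the 6 tumor groups. The pan-leukocyte marker Ptprc was not called in any of the 3 comparisons (log2 fold changes -0.16, -0.25 and -0.00), and the part of these cell types in the Arg1 and Nos2 results was not tested. The 5 epithelial markers summed to 15.6 to 16.9 CPM in the CT-26 cultures and to 0.141 to 0.180 CPM in the Colon 26 cultures. Of these 5, only Epcam had 0 counts in all 6 cultures.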

How the data were processed

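Bulk RNA-seq of 30 libraries was analysed from tables of the whole series. The authors deposited estimated counts per gene, of which 20.1% of the non-zero values were not whole (tolerance 0.01), and FPKM values, both quantified with Array Studio against Ensembl release 78. The aligner is not given in the sources used here. The authors tested with DESeq2 1.24.0. Here the estimated counts were rounded and tested with edgeR 4.0.16 (quasi-likelihood, TMM, filterByExpr, R 4.3.3) with Benjamini-Hochberg adjustment over all genes tested, at an adjusted p of at most 0.1 and a log2 fold change of at least 1. The design had assumed whole counts. Alternatives were DESeq2 1.42.0, limma 3.58.1 on log2(FPKM + 1) and log2(FPKM + 0.1), other scalings and filters, and leaving out each library. CPM were TMM-scaled, and log2 CPM used a prior count of 2. Correlations used 100000 permutations and were added after earlier results were seen. Symbols were matched for 52207 of 53431 identifiers (97.7%). Groups followed the labels. By the rule for named genes, all 10 members were named, with at most 3 called genes per list and comparison by size of change and the 3 genes most like each member, except that some genes that met this rule are not reported here. The members and lists were chosen with earlier results of these data known. Scripts were tested on simulated counts. The precision of low genes is limited by counting error.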

Additional observations from a re-analysis of the deposited data

Results flagged for a closer look

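Within groups of 4 tumors, 4 values stood far from the other 3, with a gap to the nearest tumor, as a share of the group's range, above the critical value of Dixon's test. They were Spp1 in tumor 1 of Colon 26 at 400 mm3 (0.984), the core macrophage genes in tumor 2 of CT-26 at 100 mm3 (0.902), Arg1 in tumor 4 of CT-26 at 400 mm3 (0.864) and Mrc1 in tumor 2 of Colon 26 at 800 mm3 (0.835). Chance alone marks about 1 group in 20, or about 3.3 of the 66 groups examined (10 members and the core genes in 6 tumor groups), so that 4 is near the number that chance gives.

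The change from culture to tumor differed between the models by an interaction test for Cd68 (4.19), C1qa (4.08), Apoe (1.62) and Spp1 (-1.27), as differences of log2 fold changes, Colon 26 minus CT-26.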

How the results depend on the processing

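Calls between the models at 100 mm3 and 400 mm3 depended on the settings. At 100 mm3, 1 member was called, 2 with DESeq2, RLE scaling, library size only, a filter of 10 counts or limma on log2(FPKM + 0.1), 3 without a minimum fold and 0 with all 30 libraries in one fit. At 400 mm3, 1 was called, 2 without a minimum fold or with all libraries in one fit, and 0 with limma at either pseudocount. Without a minimum fold, 3 were called at 800 mm3 and 6 over all tumors. In culture 5 were called, 8 without a filter and 3 with limma on log2(FPKM + 1). For the interaction of model and tissue 4 were called, and 7 with DESeq2. In CT-26 at 400 against 100 mm3, 0 were called, and 1 (Mrc1) with DESeq2, a filter of 10 counts or all libraries in one fit. Leaving out each library gave 0 to 2 at 100 mm3, 0 to 2 at 400 mm3, 1 to 2 at 800 mm3, 0 to 1 for CT-26 at 400 against 100 mm3 and 0 to 3 for Colon 26 at 400 against 100 mm3. The cause was not tested.

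Signs turned for uncalled values. Cd163 at 800 mm3 was 0.0442 by library size only. In the interaction of model and tissue, limma on log2(FPKM + 1) gave -0.12 for Adgre1, 0.30 for Mrc1 and -0.0850 for Nos2, and on log2(FPKM + 0.1) 0.0905 for Mrc1. With single libraries left out, the difference of models ranged at 100 mm3 from -0.44 to 0.10 for Adgre1, -0.94 to 0.13 for Nos2 and -0.0303 to 0.17 for C1qa, at 400 mm3 from -0.26 to 1.94 for Cd163 and -0.14 to 0.92 for Apoe, and at 800 mm3 from -0.12 to 0.27 for Adgre1, -0.17 to 0.26 for Mrc1, -0.93 to 0.31 for Cd163 and -0.0036 to 0.37 for Apoe. Against 100 mm3, CT-26 at 400 mm3 ranged from -0.65 to 0.25 for Arg1 and -0.15 to 1.46 for Nos2, and at 800 mm3 from -0.20 to 0.13 for Mrc1, -0.74 to 0.17 for Arg1 and -0.0515 to 0.32 for Apoe. Colon 26 at 400 mm3 ranged from -0.79 to 0.0294 for Arg1 and -0.62 to 0.0185 for Nos2, and at 800 mm3 from -0.23 to 0.0683 for Arg1, -0.0130 to 0.68 for Nos2 and -0.27 to 0.18 for Apoe. Of 935 other values, 907 kept sign and side of the threshold.

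Over all genes, limma on log2(FPKM + 1) called 861, 951 and 914 genes between the models at the 3 sizes, in place of 2038, 2176 and 2192, and without a filter 3469 at 800 mm3. All libraries in one fit called 257 and 71 genes in CT-26 at 400 and 800 against 100 mm3 and 21 and 83 in Colon 26, in place of 0, 0, 2 and 205. For the most similar genes, Spearman's rho kept between 0 and 2 of each member's 3. Pearson's r of deviations from group means kept between 0 and 3, with 0 for Adgre1, Nos2, Trem2 and Spp1. No paired analysis was possible because the labels give no replicate numbers. Low counts limit the culture values of Adgre1, Cd163, Arg1 and C1qa.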
